A study of Homo sapiens with 2 samples.

Results

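Chromatin accessibility was mapped around 6 human genes, ZNF608, PRTG, GREB1L, EDNRB, SMIM31 and BPNT2, which had been picked because more accessible regions lay near them in hTBLCs alone than in primed cells alone. A window held the hg38 body of each gene and 100 kb on either side, and every peak with its summit in a window was kept. This gave 297 of the 299673 hTBLC peaks and 192 of the 295753 primed peaks. The 489 peaks collapsed into 295 of the 336224 accessible sites of the genome, a site being a group of overlapping regions joined across the libraries. The genes were 6 of 19974 annotated protein-coding genes.

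ATAC-seq, which tags open DNA by transposase insertion, was performed on the established human embryonic stem cell line WIBR3. The groups were hTBLCs, the study's blastomere-like cells reached by spliceosome repression, and primed cells, the state in which such lines are usually grown. Each group had 1 library made from 50000 living cells. The labels give both as the same cell line and list no agent, dose or time for the hTBLC state, so the differences are between these libraries, with no replicate check and no test.

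Accessible regions mark DNA that nucleosomes leave free, at gene starts and at distal elements such as enhancers. Distal elements of developmental genes often lie in introns and in the flanks far from the start, and several can act on 1 gene. PRTG (protogenin) is a cell-surface protein of the immunoglobulin superfamily known from the early neural tube of mouse and chick. EDNRB is the endothelin receptor of neural crest cells that form pigment cells and enteric neurons. GREB1L is a nuclear protein needed for kidney development and ZNF608 a zinc finger protein of the nucleus. BPNT2 is a Golgi enzyme that hydrolyses phosphoadenosine phosphate, a by-product of sulfation, and SMIM31 encodes a small integral membrane protein.

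The values that chose the genes are descriptions. Library-only regions were counted for the coding gene whose end was nearest, up to 50 kb away, and ZNF608 had 25 hTBLC-only against 9 primed-only regions, an excess of 16 and the highest of all genes. PRTG had 18 against 5, EDNRB, GREB1L and SMIM31 each had 14 against 1, and BPNT2 had 13 against 0, all an excess of 13. The genes MAGEB10 (14 against 0), ST3GAL1 (18 against 5), LOC124902135 (14 against 1) and GRIA2 (13 against 0) had as large an excess but were not in the set. Among the genes just below were SLC9A9, SLC22A23, NRIP1, ABCA13 and BMP5, each with an excess of 12.

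The lists were close in size, with 250859 hTBLC and 242009 primed regions after overlapping peaks were merged. Signal is given as the pileup, the number of fragments or reads stacked at a summit, solved from the authors' fold enrichment and p-value. The median pileup of a region was 16 in hTBLCs and 17 in primed cells. The most frequent lowest background behind the calls was 1.957 in hTBLCs and 1.789 in primed cells. Their quotient, 1.09, served as an estimate of relative depth, which was not measured from reads. Ratios of hTBLC over primed pileup were divided by this factor, and the median of all shared sites was then -0.13 on the log2 scale, where it was 0 unscaled. Medians below are read against -0.13. The lists ended at a −log10 p of 2.83 in hTBLCs and 2.001 in primed cells, and the lowest pileup was 7 and 6, so a site missing from a list can lie just under the threshold. Of the marker lists, 7 of 9 pluripotency genes had a region within 1 kb of a gene end in hTBLCs, against 8 in primed cells. The counts were 4 against 5 of 11 genes of the 8-cell stage and 5 against 3 of 6 fibroblast genes. The share over all genes is not given beside these counts, so nothing on cell type is read from them. The part of the marker genes in the results below was not tested.

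Over the 6 windows, 140 sites were hTBLC-only, 38 were primed-only and 117 were shared. The hTBLC-only sites made up 47.5% of the sites, where the share over all sites was 29.2%, and 78.7% of the library-only sites (Wilson 95% interval 72.1 to 84.0), where the share over the genome was 52.1%. Since the genes were picked on such counts, nothing is read from the difference. Intervals here cover counting error only. More hTBLC-only than primed-only sites were found at 34.7% of all protein-coding windows, and the median window held 7 hTBLC-only and 8 primed-only sites. By window, the excess of hTBLC-only sites placed GREB1L at rank 31 of 19974 genes, BPNT2 at 75, PRTG at 86, ZNF608 and EDNRB together at 159, and SMIM31 at 503.

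**Figure D1:**
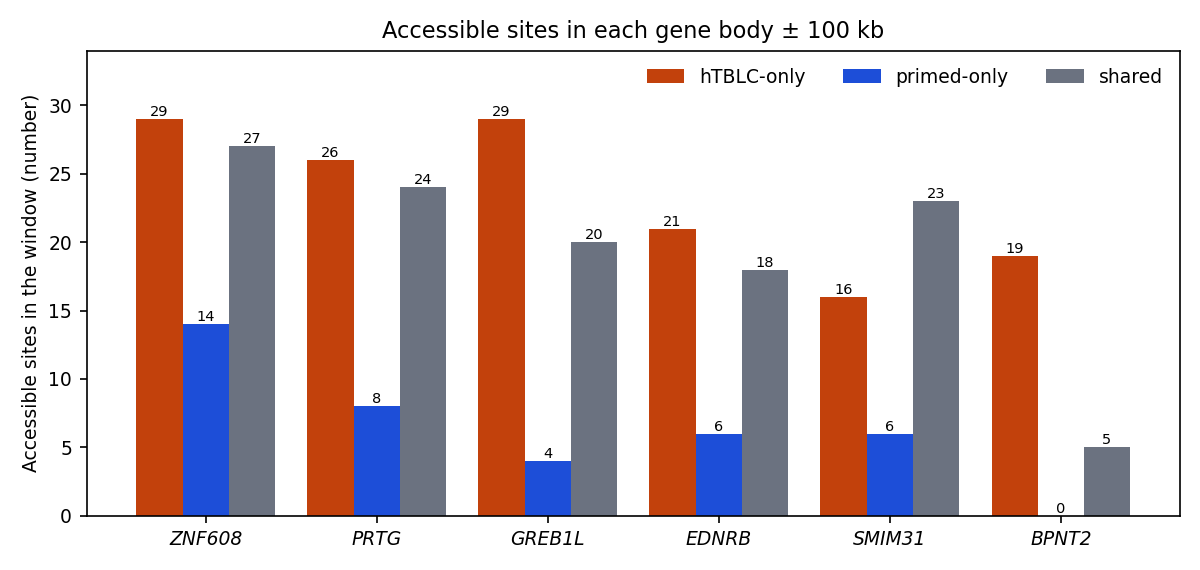
Number of accessible sites (y axis) of each class in the window of each gene (x axis); the bars are hTBLC-only, primed-only and shared sites. GREB1L and ZNF608 each had 29 hTBLC-only sites, but GREB1L had 4 primed-only sites and ZNF608 had 14, and BPNT2 had none.

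Most of the hTBLC-only sites were weak. Their median pileup was 12, as over all hTBLC-only sites, and 33 of the 140 reached a pileup of 20. This was 23.6% of them, against 15.7% of all hTBLC-only sites. Of the 38 primed-only sites, with a median pileup of 11, 9 reached 20. At a −log10 q of at least 10, a stricter limit, 25 hTBLC-only sites (17.9%) and 5 primed-only sites (13.2%) were left, where 12.2% and 14.9% were left over the genome. The median width of the hTBLC-only sites was 254.5 bp, against 257 bp over all such sites.

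Few hTBLC-only sites lay at gene ends, as over the genome. Of the 140, 3 (2.14%) lay within 1 kb of a protein-coding gene end, beside 2.69% over the genome. The gene bodies held 72 of them, 51.4%, on 36.6% of the window length. Per 100 kb, the bodies carried 10.4 hTBLC-only and 2.45 primed-only sites, the flanks within 50 kb carried 7.50 and 1.17, and the flanks at 50 to 100 kb carried 3.83 and 2.33. Beyond the windows, between 100 and 500 kb, the density was 2.83 to 4.33 hTBLC-only and 1.33 to 3.50 primed-only sites per 100 kb. The median window of all protein-coding genes had 2.86 and 3.43. The rule counted regions within 50 kb of a gene end, so nothing is read from the higher density there.

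**Figure D2:**
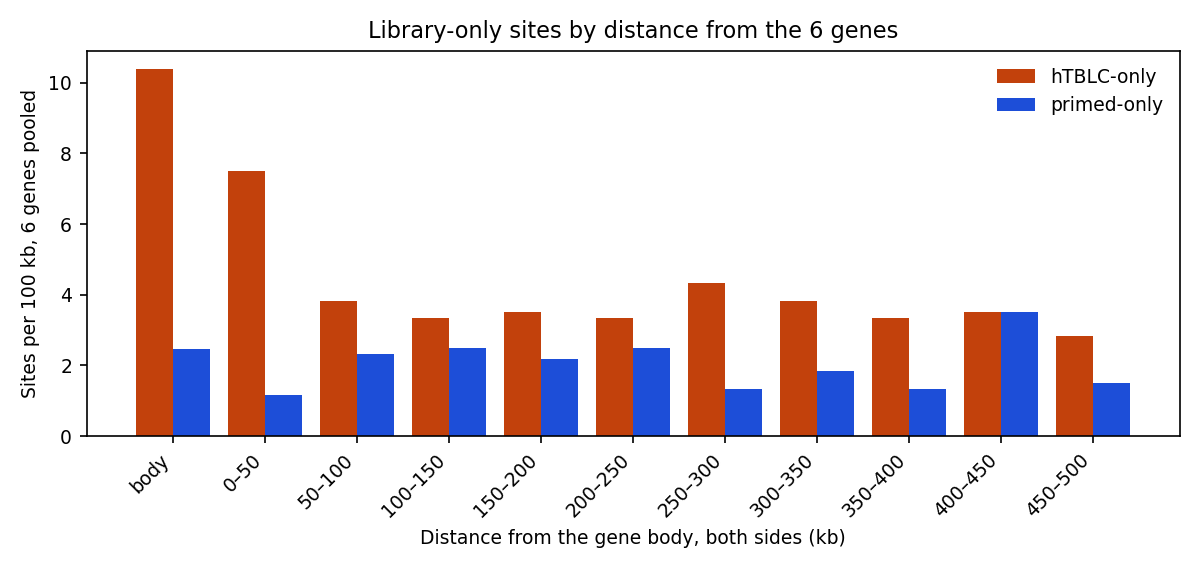
Library-only sites per 100 kb (y axis), pooled over the 6 genes, in the gene bodies and in steps of 50 kb on both sides of them (x axis, distance in kb); the bars are hTBLC-only and primed-only sites. The hTBLC-only density was 10.4 in the bodies, 7.50 in the nearest step and between 2.83 and 4.33 beyond 100 kb.

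The sites open in both libraries also had more signal in hTBLCs. Their median pileup was 35 in hTBLCs and 19 in primed cells, against 24 and 25 over all shared sites. The median log2 ratio was 0.27 (quartiles -0.13 and 0.99), where all shared sites had -0.13 (quartiles -0.63 and 0.36). A ratio of at least 1.5 was found at 42 of 117 sites, or 35.9%, where the share over all shared sites was 16.9%. A ratio of at most 1/1.5 was found at 11 sites, or 9.40%, beside 26.7%. The interval of the ratio lay above 1 at 36 sites (30.8%, beside 11.3%) and below 1 at 6 sites (5.13%, beside 18.0%). Shared sites come from the same comparison that chose the genes, so these are descriptions too. Among the top 50000 regions of each list, the excess of hTBLC-only sites was 28 and the median log2 ratio -0.029, where all shared sites had -0.08.

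The median ratio differed from gene to gene. The window median was above that of all shared sites at 6 of the 6 genes, and each gene had more sites with a ratio of at least 1.5 than of at most 1/1.5. It was 0.71 at BPNT2, 0.66 at GREB1L and 0.46 at PRTG, but 0.11 at EDNRB, 0.08 at ZNF608 and 0.06 at SMIM31. At ZNF608 the median was below that of all shared sites with stricter lists, with -0.17 against -0.11 where −log10 q had to reach 10 and -0.19 against -0.08 among the top 50000 regions. At SMIM31 the median was -0.021 among the top 50000 regions, above the -0.08 of all shared sites there. Among the 18819 genes with at least 5 shared sites, BPNT2 ranked 83, GREB1L 113 and PRTG 385, while EDNRB ranked 3327, ZNF608 3779 and SMIM31 3986. The 5th and 95th percentiles over those genes were -0.63 and 0.32. A window excess of at least 10 was found at 627 such genes, and 77.5% of them had a median above that of all shared sites, against 41.7% of all 18819 genes.

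**Figure D3:**
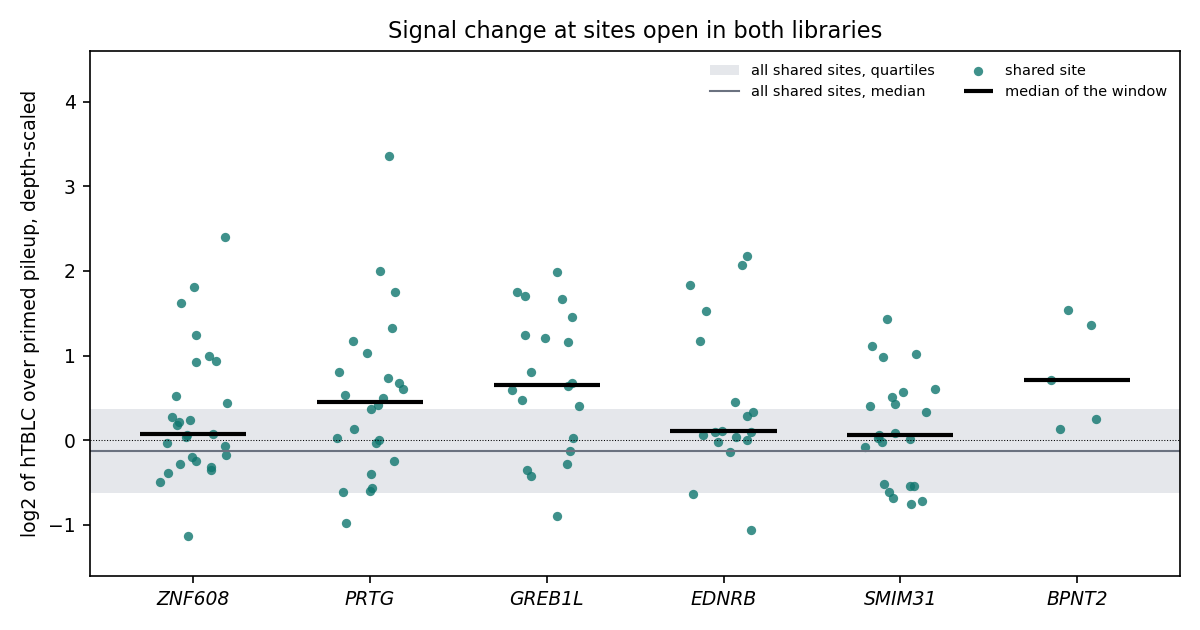
The log2 ratio of hTBLC over primed pileup, scaled for depth (y axis), at each shared site of the 6 windows (x axis, genes); points are sites, black bars the window medians, the grey line and band the median and quartiles of all shared sites. The medians of GREB1L and PRTG, 0.66 and 0.46, lie above the band, and the 5 shared sites of BPNT2 sit above the grey line.

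The distance to hTBLC-only sites was compared between the shared sites of higher signal and the others. Of the 42 sites with a ratio of at least 1.5, 17 (40.5%) had an hTBLC-only site within 5 kb, against 34 of the 75 other shared sites (45.3%). Over the genome the shares were 31.6% and 30.3%. That distance had a median of 5.81 kb for the sites of higher signal and 5.38 kb for the others.

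PRTG spans chr15:55611544-55743152 on the minus strand, and its window held 26 hTBLC-only, 8 primed-only and 24 shared sites. The shared site over its start, chr15:55742548-55743747, had a pileup of 177 in hTBLCs and 48 in primed cells, a ratio of 3.37 (95% interval 2.44 to 4.74). Next to it, inside the gene, were sites of the other kind. The sites chr15:55741647-55741926 with a pileup of 37 and chr15:55742029-55742376 with a pileup of 27 were called in primed cells only. They lay 1.36 and 0.941 kb from the start. In hTBLCs the signal was higher over the start itself, and the sites just inside it were missing from the list. Peaks were called over a local background, and a missing site has no hTBLC pileup, so a lower signal there was not shown.

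Of all 117 shared sites, the highest ratio was in the body of PRTG. At chr15:55652328-55652825, 90.6 kb inside the start, the pileup was 123 in hTBLCs and 11 in primed cells, a ratio of 10.2 (5.52 to 21.0). The next site, chr15:55653157-55653640, was hTBLC-only with a pileup of 37, the highest of that class at PRTG. Another site, chr15:55737257-55737818 at 5.64 kb inside the start, had 70 against 16, a ratio of 4.00 (2.30 to 7.38). The body held 14 hTBLC-only and 5 primed-only sites and the upstream flank 10 and 2, while the downstream flank had 2 and 1. The hTBLC-only sites of next highest pileup, 34 at chr15:55770843-55771091 and 27 at chr15:55824871-55825193, were both upstream. The lowest ratio among the shared sites with a pileup of at least 20 was 0.51 (0.298 to 0.846) at chr15:55526498-55527490 downstream, with 25 against 45.

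The promoter of PRTG is shown with that of GREB1L because their start sites had the highest ratios of the 6 genes. RefSeq promoter sequences of build GRCh38.p14 run from 250 bases before to 50 bases after a start, are written 5′ to 3′ on the strand of the gene, and have each CpG in capitals. They are chr15:55743103-55743402, minus strand, for PRTG and chr18:21241982-21242281, plus strand, for GREB1L.
PRTG: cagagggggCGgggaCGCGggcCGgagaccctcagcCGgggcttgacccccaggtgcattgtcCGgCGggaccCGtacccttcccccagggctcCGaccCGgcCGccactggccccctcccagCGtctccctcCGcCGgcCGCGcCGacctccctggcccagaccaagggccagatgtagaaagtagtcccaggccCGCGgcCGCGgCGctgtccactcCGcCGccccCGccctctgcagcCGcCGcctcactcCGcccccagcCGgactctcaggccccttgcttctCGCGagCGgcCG
GREB1L: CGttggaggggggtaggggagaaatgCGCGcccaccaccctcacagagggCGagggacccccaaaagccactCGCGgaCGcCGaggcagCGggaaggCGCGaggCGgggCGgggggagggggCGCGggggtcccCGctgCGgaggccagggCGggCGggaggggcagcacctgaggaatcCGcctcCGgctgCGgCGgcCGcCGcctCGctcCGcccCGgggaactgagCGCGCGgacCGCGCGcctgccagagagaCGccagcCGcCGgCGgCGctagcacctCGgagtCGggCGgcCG
The PRTG promoter had 33 CpGs and 76.3% GC and the GREB1L promoter 43 CpGs and 78.7% GC, where the medians of all 35116 promoters in the table were 14 CpGs and 58.7%. Neither held any of the motifs searched on both strands, which were TGANTCA for AP-1 (found in 7.71% of all promoters), the octamer ATGCAAAT for OCT (1.77%), AACAATG for SOX (3.33%), AGATAA for GATA (10.3%), GGAATG for TEAD (14.0%) and GGGNGTGG for KLF (17.2%). A match or its absence says only that the letters are or are not in the window.

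GREB1L spans chr18:21242232-21526112 on the plus strand and had the largest excess of the 6, with 29 hTBLC-only sites against 4 primed-only sites, and 20 shared sites. The start lay in a shared site, chr18:21242047-21243268, with a pileup of 96 in hTBLCs and 32 in primed cells, a ratio of 2.74 (1.82 to 4.23). The site just upstream, chr18:21241396-21241889, had 48 against 13, a ratio of 3.38 (1.80 to 6.79). Both the start and the site beside it were higher in hTBLCs, and no primed-only site lay near them.

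The body of GREB1L carried 24 of the 29 hTBLC-only sites, the upstream flank 3 and the downstream flank 2. A run of 7 hTBLC-only sites with no other site between them covered 31.6 kb, and it began with chr18:21266383-21266634, the strongest of the gene with a pileup of 41, at 24.3 kb inside the start. The next strongest, with a pileup of 30 each, were chr18:21330323-21330728 and chr18:21247012-21247223. Among shared sites, chr18:21361296-21361711 had 108 against 25, a ratio of 3.95 (2.54 to 6.37), at 119 kb from the start. The site chr18:21366656-21367288, beside it, had 52 against 15, a ratio of 3.17 (1.76 to 6.06). In the upstream flank, chr18:21218787-21219397 had 32 against 9, a ratio of 3.25 (1.52 to 7.74).

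Of the 12 shared sites of GREB1L with a ratio of at least 1.5, 11 lay upstream or up to 150 kb inside the start. Shared sites of lower ratio lay in that stretch too, at chr18:21167444-21168014 (0.82), chr18:21300382-21301119 (1.02) and chr18:21386479-21387360 (0.91). From chr18:21386479-21387360 (41 against 41, ratio 0.91) to the end of the body, the shared sites had ratios between 0.54 and 1.55, and the strongest primed-only site, chr18:21500344-21500951 with a pileup of 18, lay there as well. The lowest ratio among shared sites with a pileup of at least 20 was 0.75, at chr18:21444486-21444812, with 18 against 22. The shared sites in the downstream flank belonged to neighbouring genes. The gene end of higher coordinate of ESCO1, an acetyltransferase of cohesin, had 116 against 80, a ratio of 1.33 (0.988 to 1.79). The gene end of lower coordinate of SNRPD1, a core protein of the spliceosomal particles, had 151 against 99, a ratio of 1.39 (1.08 to 1.82). Neither gene has a start listed here, so whether these ends are starts was not determined.

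**Figure D4:**
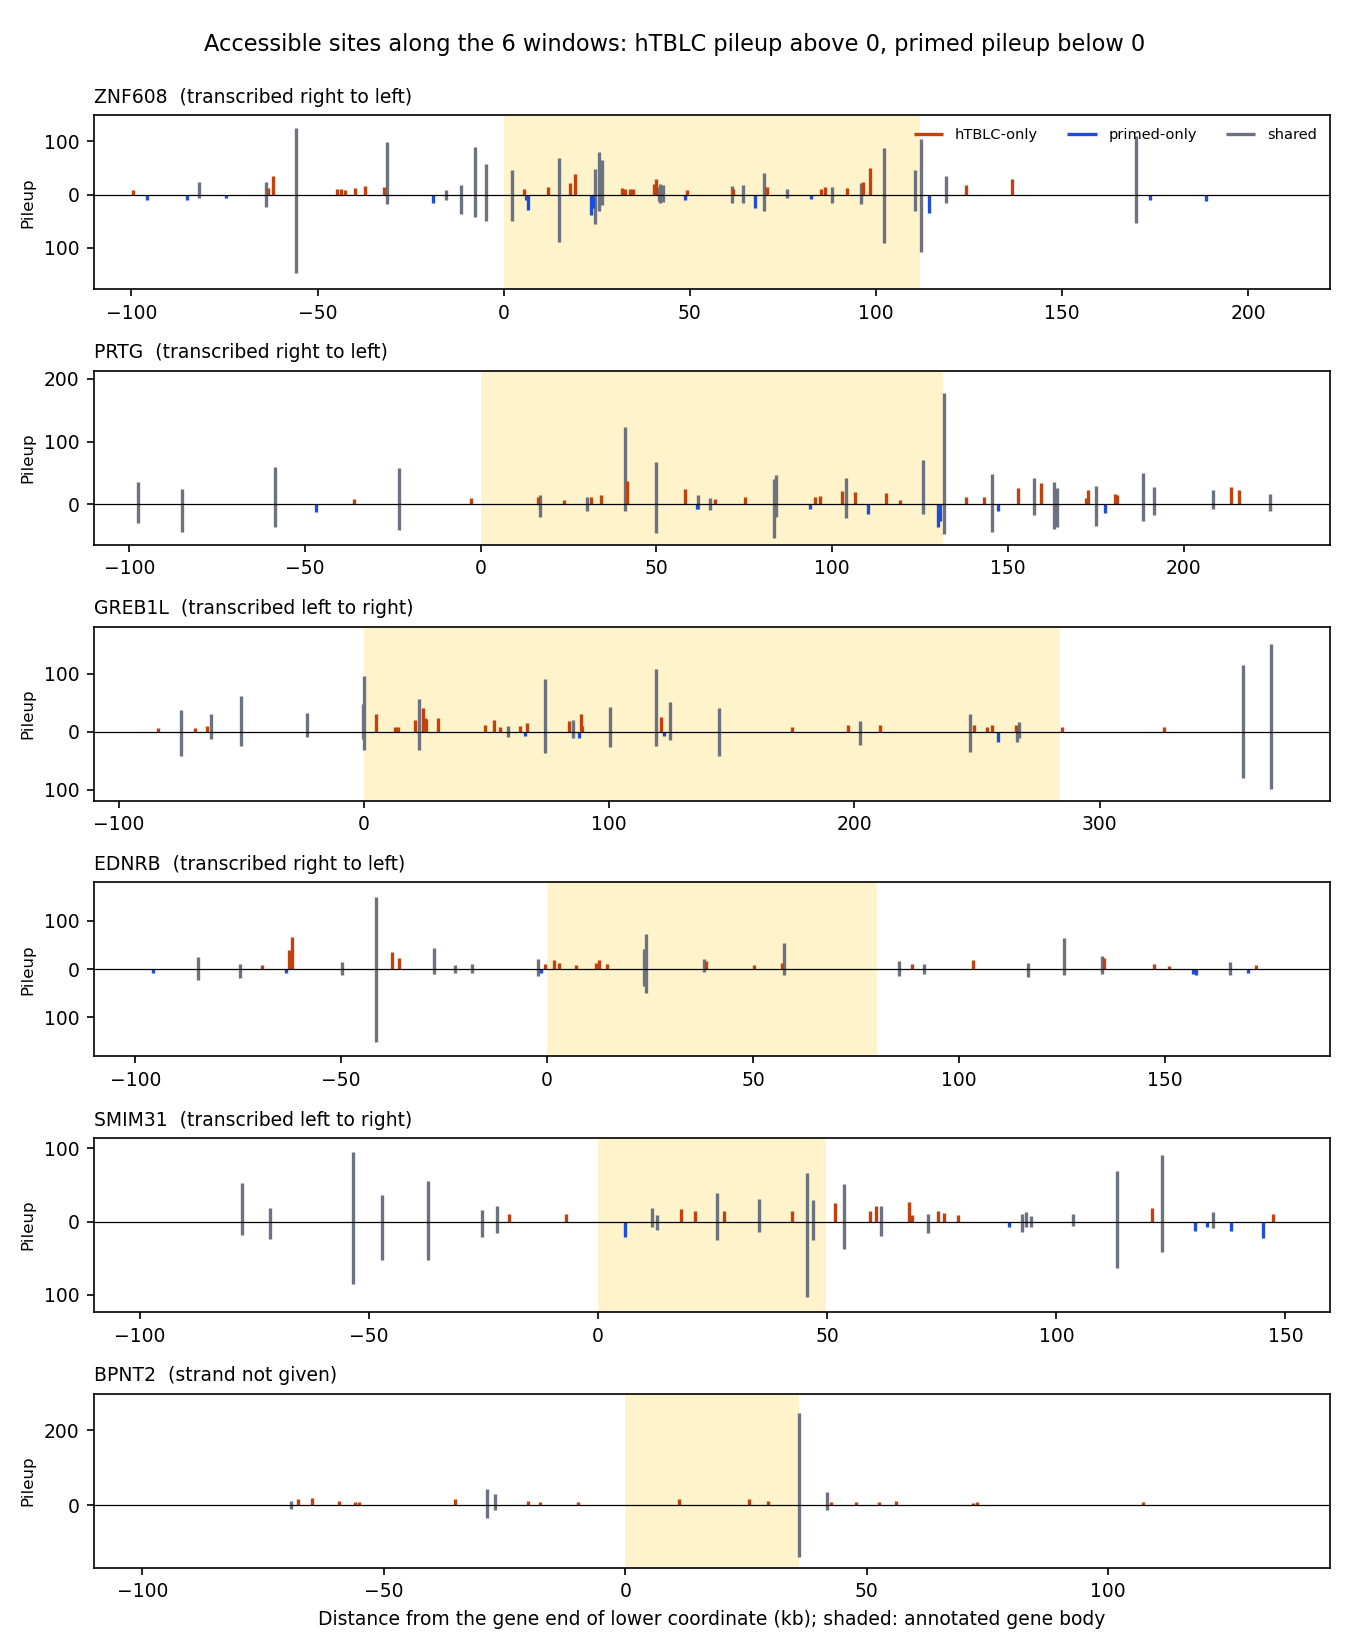
Pileup at each accessible site along the 6 windows, hTBLC above 0 and primed below 0 (y axis, linear), by distance from the gene end of lower coordinate in kb (x axis); colours give the class and shading the annotated gene body. The tallest hTBLC line at PRTG is the start site with 177 against 48, and the line at 41.0 kb with 123 against 11 is the shared site of highest ratio.

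EDNRB spans chr13:77895487-77975527 on the minus strand and had 21 hTBLC-only, 6 primed-only and 18 shared sites. The 2 starts that the promoter table lists lie inside the annotated body. The site over the stronger, chr13:77919373-77920179, had a pileup of 73 in hTBLCs and 49 in primed cells, a ratio of 1.36 (0.935 to 1.998), and the site over the other, chr13:77918323-77919251, had 41 against 35, a ratio of 1.07. Both intervals included 1, and that of the stronger start lay above 0.914, the median ratio over all shared sites.

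The strongest hTBLC-only site of all 6 windows lay 62.0 kb past the downstream end of EDNRB. At chr13:77833271-77833682 the pileup was 66, and the site beside it, chr13:77832752-77833050, was hTBLC-only with 39. The third, chr13:77857601-77857940 with 36, was in the same flank, while the primed-only sites of EDNRB had pileups of 8 to 12. The body held 9 hTBLC-only sites and no primed-only site. A run of 7 hTBLC-only sites over 15.3 kb began just outside the downstream end of the gene, with pileups of 8 to 19.

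Most shared sites of EDNRB had a ratio near 1, and a few were far above it. Ratios of at least 1.5 were found at 5 of 18 sites (27.8%, beside 16.9% over all shared sites), and all 5 intervals lay above 1. The 3 highest were 4.50 (2.45 to 8.91) at chr13:78020591-78021277 upstream, with 64 against 13, then 4.19 (2.22 to 8.60) at chr13:77952716-77953108 in the body, with 55 against 12, and 3.57 (1.81 to 7.68) at chr13:77867755-77868115 downstream, with 43 against 11. The other two were 2.87 (1.19 to 7.96) at chr13:77933195-77933784 and 2.24 (1.08 to 5.01) at chr13:78029941-78030327. The intervals of the sites with ratios of 4.50 and 4.19 lay above that of the stronger start. The strongest site, chr13:77853615-77854177 in the downstream flank, had 150 against 151, a ratio of 0.91 (0.720 to 1.15). Ratios of at most 1/1.5, found at 26.7% of all shared sites, were found at 2 weak sites here. They were 0.48 with 10 against 19 at chr13:77820788-77821052 and 0.65 with 12 against 17 at chr13:78012081-78012365, and both intervals included 1. Over the 10 sites with a pileup of at least 20 in either library the median log2 ratio was 0.81, against 0.11 over all 18. The 5 sites with a ratio of at least 1.5 passed through hTBLCs alone, so nothing is read from the higher median. Over the 6 genes, 85 shared sites had such a pileup, and 38 of them (44.7%) had a ratio of at least 1.5, where the share over all such sites was 19.9%. Of the 85, 27 reached 20 in hTBLCs alone and 5 in primed cells alone, where the counts over all shared sites were 18002 and 19158.

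SMIM31 spans chr4:164754131-164803795 on the plus strand and had the smallest excess, with 16 hTBLC-only, 6 primed-only and 23 shared sites. No region of either library lay within 1 kb of its start or its other end. Of the hTBLC-only sites, 10 were in the downstream flank, 4 in the body and 2 upstream, and the strongest, with pileups of 27, 26 and 22, were all downstream. The shared site nearest the start, chr4:164765837-164766173, was 11.9 kb inside it and had 19 against 8, a ratio of 2.17 (0.908 to 5.73).

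At SMIM31 the shared sites went both ways, as over the genome. A ratio of at least 1.5 was found at 5 (21.7%, beside 16.9% over all shared sites). A ratio of at most 1/1.5 was found at 4, where the share over all shared sites was 26.7%. The summed pileup over all 23 was 785 in hTBLCs and 677 in primed cells, a ratio of 1.06 (0.955 to 1.18). Among the 6 genes only this interval included 1, though it lay above 0.914, the median ratio over all shared sites. The highest ratio, among sites with a pileup of at least 20, was 2.69 (1.55 to 4.88) at chr4:164676153-164676792 upstream, with 53 against 18. The lowest was 0.59 (0.431 to 0.817) at chr4:164799387-164799895, near the downstream end of the body, with 67 against 103. The start of the neighbouring gene APELA, which encodes a hormone of early human embryonic cells, had 91 against 42, a ratio of 1.98 (1.36 to 2.93).

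ZNF608 spans chr5:124636915-124748824 on the minus strand and was first by the rule, but it also held the most primed-only sites, 14 against 29 hTBLC-only sites, with 27 shared sites. The start site, chr5:124748692-124749652, had a pileup of 105 in hTBLCs and 108 in primed cells, a ratio of 0.89 (0.673 to 1.17), close to the median ratio of 0.914 over all shared sites. The next site upstream, chr5:124751142-124751377, was primed-only with a pileup of 35, at 2.44 kb. The ratio at the start of ZNF608 was within counting error of 1, as were those of the nearest shared sites inside the gene, 1.36 (0.842 to 2.21) and 0.87 (0.644 to 1.19).

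Of the hTBLC-only sites at ZNF608, 18 were in the body, 9 downstream and 2 upstream. The strongest were chr5:124735232-124735754 with a pileup of 50 and chr5:124655988-124656294 with 39, both in the body, and chr5:124574501-124575034 downstream with 34. A run of 6 over 13.1 kb in the downstream flank, with pileups of 9 to 16, ended just before the shared site of highest ratio, chr5:124605307-124605891, which had 98 against 17, a ratio of 5.27 (3.13 to 9.41). The lowest ratio, 0.46 (0.244 to 0.826), was 11.5 kb past the downstream end at chr5:124625288-124625811, with 18 against 36.

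A cluster inside ZNF608 held primed-only sites beside shared sites of higher signal in hTBLCs. Over chr5:124660290-124663498, the first pair of sites was primed-only with pileups of 38 and 26, the third had 47 in hTBLCs and 55 in primed cells, a ratio of 0.78, and the last pair had 80 against 31, a ratio of 2.36 (1.54 to 3.70), and 64 against 19, a ratio of 3.08 (1.82 to 5.44). The interval of the third, 0.518 to 1.17, included 1. The primed-only pair has no hTBLC pileup, so a lower signal in hTBLCs was not shown in this stretch.

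BPNT2 spans chr8:56957931-56993867, and its strand is not in the tables used here. It had the fewest sites, 19 hTBLC-only and 5 shared, and was the only one of the 6 with no primed-only site. By part, 9 of the hTBLC-only sites were in the flank of lower coordinates, 3 in the body and 7 in the flank of higher coordinates, and a run of 7 covered 65.0 kb of the last. They were weak, with pileups of 7 to 20 and a median of 10, and the strongest was chr8:56892926-56893178.

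The 5 shared sites of BPNT2 had log2 ratios of 0.13 to 1.54, and none was below 0. The site at the gene end of higher coordinate, chr8:56992714-56994570, was the strongest of all 6 windows in hTBLCs, with a pileup of 247 against 138 in primed cells, a ratio of 1.64 (1.32 to 2.03). The highest ratio was 2.91 (1.44 to 6.35) at chr8:56999267-56999788, with 35 against 11, and chr8:56930840-56931927 had 31 against 11, a ratio of 2.58 (1.26 to 5.68). With few shared sites the rank of the median at BPNT2 rests on few values.

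**Figure D5:**
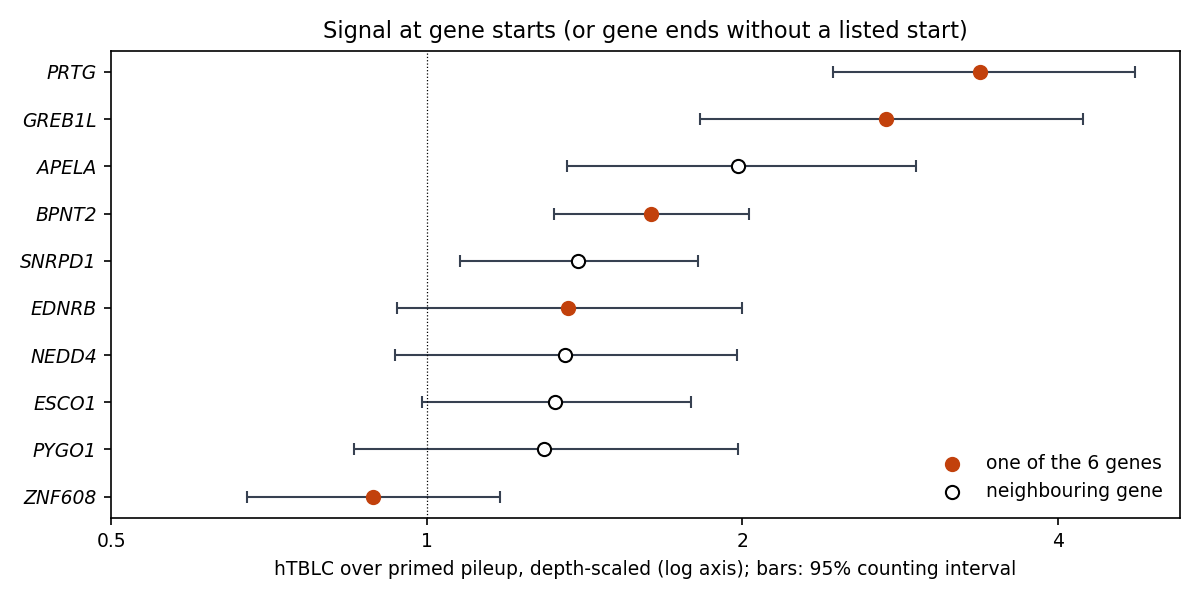
Ratio of hTBLC over primed pileup, scaled for depth (x axis, log scale), at the strongest listed start of each gene, or at a gene end where no start with a region is listed (BPNT2, ESCO1, SNRPD1); filled points are the studied genes, open points neighbouring genes, and bars 95% counting intervals. PRTG (3.37) and GREB1L (2.74) are highest, ZNF608 (0.89) is lowest, and SMIM31 has no region to plot.

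The promoters of ZNF608, EDNRB and SMIM31 are shown for contrast, since their start sites had ratios within counting error of 1 or no region. They are chr5:124748775-124749074, minus strand, for ZNF608, chr13:77919633-77919932, minus strand, for the stronger start of EDNRB and chr4:164753881-164754180, plus strand, for SMIM31, with each CpG in capitals and credit to RefSeq as above.
ZNF608: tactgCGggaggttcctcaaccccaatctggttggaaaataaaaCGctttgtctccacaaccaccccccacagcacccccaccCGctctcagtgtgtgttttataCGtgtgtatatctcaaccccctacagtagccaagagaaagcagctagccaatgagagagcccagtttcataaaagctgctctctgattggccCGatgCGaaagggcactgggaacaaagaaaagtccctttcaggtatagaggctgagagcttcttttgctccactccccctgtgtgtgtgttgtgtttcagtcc
EDNRB: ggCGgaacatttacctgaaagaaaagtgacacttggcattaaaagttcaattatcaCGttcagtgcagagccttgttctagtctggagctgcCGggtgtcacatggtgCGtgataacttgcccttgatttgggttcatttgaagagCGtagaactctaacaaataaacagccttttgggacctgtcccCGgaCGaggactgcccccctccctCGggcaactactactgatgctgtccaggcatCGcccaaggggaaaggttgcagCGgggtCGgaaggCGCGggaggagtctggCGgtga
SMIM31: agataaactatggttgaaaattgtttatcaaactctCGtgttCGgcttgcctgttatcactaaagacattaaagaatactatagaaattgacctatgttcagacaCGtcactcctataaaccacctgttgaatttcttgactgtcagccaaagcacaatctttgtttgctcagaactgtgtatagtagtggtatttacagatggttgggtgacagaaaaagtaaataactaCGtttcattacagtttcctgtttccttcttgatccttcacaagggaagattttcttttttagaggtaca
ZNF608 had 6 CpGs and 50.7% GC and held 2 KLF matches, EDNRB had 14 CpGs and 53.3% GC and no match, and SMIM31 had 4 CpGs and 35.7% GC and 1 GATA match. The other EDNRB start, with a ratio of 1.07, had 19 CpGs and 58% GC and 1 TEAD match. Among the neighbouring genes described here, the starts with a region over them had 43 CpGs at PYGO1, 41 at NEDD4 and 4 at APELA. Their ratios were 1.29, 1.35 and 1.98. The other listed starts, with 14 CpGs at PYGO1 and 2 at NEDD4, had no region over them.

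The genes on either side of PRTG had ratios nearer 1 at their starts. PYGO1, a Wnt signalling cofactor downstream of PRTG, had 58 against 41, a ratio of 1.29 (0.852 to 1.98), and NEDD4, a ubiquitin ligase upstream of it, had 74 against 50, a ratio of 1.35 (0.932 to 1.98). Both intervals included 1, unlike that of PRTG between them, though that of NEDD4 lay above 0.914, the median ratio over all shared sites. The NEDD4 start site, chr15:55992988-55994452, lay outside the PRTG window, which ended at chr15:55843152. LOC124903496, also downstream, had no region at a start or end.

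Relatives of 5 of the genes, all but SMIM31, were chosen by name. Of 15, 7 had more hTBLC-only sites in their windows, 6 had more primed-only sites and 2 had equal numbers. They held 194 hTBLC-only and 181 primed-only sites in all. Over all 19974 protein-coding windows, 6929 had more hTBLC-only sites and 11176 had more primed-only sites. ZNF609 had 8 against 20, NEO1 had 10 against 14 and EDNRA had 7 against 13, each with more primed-only sites. DCC, of the same receptor family as PRTG, had 51 against 30, and GREB1 had 21 against 17. The median log2 ratios at shared sites ran between -0.69 and 0.32.

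The surroundings of the genes differed in their share of hTBLC-only among library-only sites. Between 100 kb and 1 Mb from the body it was 70.5% at BPNT2 (61.2 to 78.4), 67.9% at GREB1L (54.5 to 78.9), 65.2% at ZNF608 (56.1 to 73.3) and 61.1% at SMIM31 (53.0 to 68.7). It was 50.9% at PRTG (37.9 to 63.9) and 50.7% at EDNRB (42.4 to 59.0), against 76.5% and 77.8% inside their windows. On the rest of the chromosome the share was 54.4% for BPNT2 and 53.5% for ZNF608, below the intervals of their surroundings. It was 54.6% for GREB1L, 57.4% for SMIM31, 44.8% for PRTG and 54.8% for EDNRB, inside the intervals of their surroundings. The median log2 ratio in the surroundings lay between -0.02 and 0.11. Shared sites with a ratio of at least 1.5 made up 32.1% there at ZNF608 and 24.7% at SMIM31. Inside these windows they made up 25.9% and 21.7%. At BPNT2, PRTG, GREB1L and EDNRB they made up 25.4%, 23.1%, 20.5% and 17.9% of the surroundings. Inside those windows the shares were 60%, 41.7%, 60% and 27.8%.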

How the data were processed

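Per the submitters' processing notes, the tools were Bowtie2, Picard and MACS2, with hg38 as build; versions, settings, duplicate removal and read shifting were not given in the sources used here. Each library has its own peak list. Per peak the authors deposited positions in bp, a score (10 times the −log10 p rounded down, at most 1000, not used), a fold enrichment over the local background, a −log10 p-value and a −log10 q-value. Ranks without a line, 327 in hTBLCs and 252 in primed cells, count as absent.

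Whole pileups were solved from the deposited fold (pileup plus 1 over background plus 1) and the Poisson p, for 99.998% and 99.999% of peaks at a tolerance of 0.001 in −log10 p. On chromosomes 1 to 22 and X, peaks that overlapped were merged, regions overlapping by 1 bp were joined into sites, and a site entered a window by any summit in it. A ratio used the highest pileup of each library divided by 1.09, with an exact binomial 95% interval, and shares have Wilson intervals. Read totals were not analysed here. Gene bodies and promoters came from RefSeq, GRCh38.p14, and 5 of 6 genes matched a promoter. Exons, introns, UTRs and the sequences of the sites were not analysed here.

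At each gene the named sites were the 3 strongest hTBLC-only sites, the strongest primed-only site, the shared site nearest a start, and the shared sites of highest and lowest ratio with a pileup of at least 20. Other sites were chosen after their values were seen. Genes, lists and rules were chosen with earlier results of these data known. Stricter lists, other overlaps and windows, no depth scaling and leaving out each gene were tried as alternatives. The steps were tested on simulated data, and Python 3.11.15, numpy 2.4.6, pandas 2.3.3, scipy 1.17.1 and matplotlib 3.10.9 were used.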

Additional observations from a re-analysis of the deposited data

How the results depend on the processing

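With 1 library per group, no interval covers the spread between cultures, and weak sites near the calling threshold make up most of the counts. No paired analysis was possible because each group has 1 library. The excess of 102 hTBLC-only sites was 49 with lists cut at a −log10 q of 5, 39 with 10 and 28 among the top 50000 regions of each list. The share of 78.7% was 91.2% in the top 50000 regions. The 42 shared sites with a ratio of at least 1.5 became 26, 16 and 6 under these 3 settings. The median log2 ratio of 0.27 was -0.029 in the top 50000 regions, where all shared sites had -0.08. A site shared there must rank high in both lists, so sites weak in either library leave the shared class. The part of this in the lower median was not tested. For single genes the median turned negative at ZNF608, with -0.17 at the limit of 10 and -0.19 in the top 50000 regions. At SMIM31 the median was -0.021 in the top 50000 regions and -0.049 with a window of 200 kb. Both values lay above the medians of all shared sites under these settings, -0.08 and -0.13. No excess of a single gene was negative under any setting, though that of SMIM31 was 0 at the limit of 10. Leaving out each gene in turn gave an excess of 77 to 92, a share of 76.1 to 82.2%, a median of 0.18 to 0.39 and a count of 30 to 39. Without scaling for depth the median was 0.40 and the count 48. A pileup of at least 20 at shared sites and an interval above 1 in place of the fold were added after the data were seen, and gave counts of 38 and 36.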

Other observations

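The genes that had as large an excess as the 6 but were not in the set differed at shared sites. The window of MAGEB10 held 23 hTBLC-only sites, no primed-only site and no shared site. In the other 3 windows the median log2 ratio at shared sites was 0.30 at GRIA2, 0.21 at ST3GAL1 and 0.15 at LOC124902135, with 17, 25 and 24 hTBLC-only against 4, 9 and 3 primed-only sites. GRIA2 encodes a subunit of AMPA-type glutamate receptors and ST3GAL1 a sialyltransferase.

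Among the endothelin genes, which encode the ligands of EDNRB and the enzyme that matures them, EDN1 had 12 hTBLC-only against 9 primed-only sites in its window, EDN2 had 9 against 13, EDN3 had 12 against 6 and ECE1 had 12 against 16. Among the phosphatases related to BPNT2, BPNT1 had 11 against 6, INPP1 had 9 against 5, IMPA2 had 8 against 7 and IMPA1 had 6 against 7. In the receptor family of PRTG, IGDCC3 had 10 against 10 and IGDCC4 had 8 against 8.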
